A study of Mus musculus with 2 samples.

Results

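Smooth muscle cells and pericytes, the mural cells that wrap arteries, veins and capillaries, were picked out of a single-cell RNA-seq survey of mouse dystrophic limb muscle. A cell was taken as a member when it held at least 500 genes, UMIs of at least 3 of 9 mural markers (Rgs5, Kcnj8, Abcc9, Notch3, Higd1b, Myh11, Cnn1, Lmod1 and Pln) and no UMI of Ptprc, Pdgfra, Cdh5 or Pax7, the markers of immune cells, fibro-adipogenic progenitors (FAPs), endothelial cells and muscle stem cells (MuSCs). A UMI is a tag that marks 1 captured mRNA molecule. The rule found 144 cells among the 8010 barcodes deposited, 7664 of which held at least 500 genes. They comprised 104 cells of the Ctrl library and 40 of the dKO library. Since these 13 genes chose the cells, their levels below are a description only.

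Both libraries came from mdx mice, which lack functional dystrophin and undergo repeated rounds of muscle damage and repair. Ctrl mice were Pax7 CreERT2/R26YFP; Yy1 +/+; mdx, and dKO mice were Pax7 CreERT2/R26YFP; Yy1 f/f; mdx, so that tamoxifen-activated Cre could delete the transcription factor gene Yy1 in dKO mice only. Cre was expressed from Pax7, a gene of MuSCs, so mural cells were not the cells in which deletion was directed. All mice received tamoxifen for 5 days at 1.5 months of age, and muscle was harvested 1 month after it. Mononuclear cells of 3 mice per genotype were pooled, sorted as live (propidium iodide negative) cells after lysis of erythrocytes, and loaded for 10x Genomics capture as 1 library per genotype. With 1 library per genotype there is no replicate, so no test between Ctrl and dKO was possible and the 95% intervals given, exact unless named otherwise, cover counting error only.

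Mural cells fall into a contractile kind and a supporting kind. Vascular smooth muscle cells surround arterioles and larger vessels, and they set vessel calibre through smooth muscle actin, smooth muscle myosin and the proteins that anchor and regulate them. Pericytes lie within the basement membrane of capillaries, depend on PDGF receptor beta signalling from the endothelium, and are known for the ATP-sensitive potassium channel built from Kcnj8 (the Kir6.1 pore) and Abcc9 (its sulfonylurea receptor), whose opening relaxes the cell. Notch3 is the receptor through which both kinds receive Notch signals from the endothelium.

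The results turned mainly on contractile genes and, within smooth muscle cells, on interferon-stimulated genes, and 3 of their promoters are shown because each carries the classical element of its group. The sequences are RefSeq promoters on GRCm38.p6, from 250 bases before to 50 bases after the annotated start, written 5′ to 3′ on the strand of the gene. Capitals mark the match: in Myl9 and Myl6, the myosin light chains, the CArG box bound by serum response factor, and in Ifitm3, an interferon-induced membrane protein, the interferon-stimulated response element searched as GAAANNGAAA.
Myl9 (chr2:156775214-156775513, plus strand): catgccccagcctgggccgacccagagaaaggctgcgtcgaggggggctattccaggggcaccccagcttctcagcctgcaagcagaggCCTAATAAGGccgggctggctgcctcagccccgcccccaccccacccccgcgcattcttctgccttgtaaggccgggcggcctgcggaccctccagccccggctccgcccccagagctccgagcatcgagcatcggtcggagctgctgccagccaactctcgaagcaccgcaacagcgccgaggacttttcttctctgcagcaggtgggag
Myl6 (chr10:128492960-128493259, minus strand): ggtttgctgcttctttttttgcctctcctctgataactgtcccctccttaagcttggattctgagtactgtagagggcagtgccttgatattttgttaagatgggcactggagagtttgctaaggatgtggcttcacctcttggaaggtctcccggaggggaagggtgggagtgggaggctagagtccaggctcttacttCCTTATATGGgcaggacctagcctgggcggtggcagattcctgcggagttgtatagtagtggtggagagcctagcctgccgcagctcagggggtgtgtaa
Ifitm3 (chr7:141010695-141010994, minus strand): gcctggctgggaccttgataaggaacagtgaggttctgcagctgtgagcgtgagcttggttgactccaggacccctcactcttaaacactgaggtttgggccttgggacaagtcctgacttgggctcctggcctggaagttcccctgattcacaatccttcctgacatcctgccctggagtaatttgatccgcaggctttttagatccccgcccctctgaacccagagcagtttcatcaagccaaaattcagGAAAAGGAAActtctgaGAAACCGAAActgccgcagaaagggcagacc
Searched on both strands, the CArG box occurred in 6 of the 31 matched contractile genes (19.4%; Cnn2, Filip1l, Ldb3, Myl6, Myl9 and Vcl), against 1.63% of all 32851 promoters of the same length. It occurred in 0 of the 14 matched pericyte genes and in 1 of the 15 matched smooth muscle markers (6.67%). GAAANNGAAA occurred in 26 of 47 matched interferon genes (55.3%), against 3.44% of all promoters, in 3 of 14 pericyte genes (21.4%) and in 1 of 31 contractile genes (3.23%). Myl6 has another annotated promoter (chr10:128493837-128494136), which holds 0 CArG matches. A listed gene was counted if any of its promoters matched, whereas each of the 32851 promoters was counted singly. Listed genes with more than 1 promoter had more chances to match, so these shares are not like for like. A match describes the letters of the window and is not evidence of binding.

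Genes that the rule did not read carried the label of mural cells. Smooth muscle actin Acta2 stood at 11183 counts per 1e+06 UMIs (CPM) in Ctrl members and 13020 CPM in dKO members, and exceeded all other cells 97.2-fold in Ctrl and 194-fold in dKO. The actin-binding protein Tagln exceeded other cells 117-fold in Ctrl and 159-fold in dKO, and Myl9 93.7-fold in Ctrl and 126-fold in dKO. Ranked by the smaller of the ratios of both libraries, the furthest apart was Nrip2, a nuclear receptor interacting protein, which exceeded other cells 162-fold in Ctrl and 164-fold in dKO. The neuropeptide Y receptor Npy1r (108-fold in Ctrl and 93.4-fold in dKO), the calcium-activated chloride channel Ano1 (87.0-fold in Ctrl and 164-fold in dKO), the potassium channel subunit Kcnab1 (93.4-fold in Ctrl and 98.8-fold in dKO) and the myosin phosphatase inhibitor Ppp1r14a (78.5-fold in Ctrl and 132-fold in dKO) followed, and so did the olfactory receptor Olfr558 (82.7-fold in Ctrl and 180.2-fold in dKO). Members held 70.0% of all Nrip2 UMIs of the Ctrl cells and 50.6% of those of the dKO cells. In all, 439 of 1387 genes tested (31.7%) were at least 2-fold higher in members than in other cells of both libraries; these cells were chosen by their expression, so this count is a description.

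Cells on either side of the marker threshold differed in contractile genes. The 16 Ctrl and 3 dKO cells just inside it, with exactly 3 markers, held Acta2 at 5766 and 7178 CPM and Tagln at 3936 and 4742 CPM. The 10 Ctrl and 2 dKO cells just outside it, with exactly 2 markers and none of the exclusion genes, held Acta2 at 329 and 2329 CPM and Tagln at 0 and 45.4 CPM. Those just outside were deep cells with a median of 22329.5 and 33064.5 UMIs, and those just inside had a median of 3510.5 and 1954. The exclusion genes removed more cells than the marker threshold did near its edge. Of the 189 Ctrl and 75 dKO cells with at least 3 markers, 85 and 35 were left out, and 72 and 24 of these carried Cdh5. The Cdh5-carrying cells held Rgs5 at 9451 CPM in Ctrl and 5433 CPM in dKO beside the endothelial adhesion molecule Pecam1 at 708 and 501 CPM, with median depths of 10983.5 and 11195.5 UMIs, above those of the members. Whether they were mural cells caught with an endothelial cell was not tested, and they are outside every value below unless named.

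Members held 647306 UMIs in Ctrl, with a median of 5614.5 per cell, and 209065 UMIs in dKO, with a median of 4807. The libraries shared 7 cell barcodes, none of them a member's. Genes that mark other cells were present at low counts in most members. Of the 104 Ctrl members, 100 held a UMI of an FAP marker, 94 one of an endothelial marker and 81 one of a macrophage marker. The 18 FAP markers summed to 3216 CPM in Ctrl members and 1593 CPM in dKO members, with a range over cells of 0 to 46472 and 0 to 7729.9 CPM, and were at 19952 and 25459 CPM in other cells. The 16 macrophage markers summed to 572 CPM (0 to 18151) and 273 CPM (0 to 1739), and 31.4% of them sat in 1 Ctrl cell. A single Ctrl cell held 86.1% of the UMIs of myofibre genes, and no member held a UMI of an erythroid gene. The 20 endothelial markers (Cdh5 is not among them) summed to 570.1 CPM (0 to 6504) and 727 CPM (0 to 5431), 34.9% of those of dKO sat in 1 cell, and the defining gene Pecam1 had 2 UMIs in Ctrl and 6 in dKO. In other cells the endothelial markers were at 1576 and 836 CPM. The 8 myogenic markers, which include Des, a gene that smooth muscle also uses, were higher in members (573 and 952 CPM) than in other cells (329 and 249 CPM), and Des gave 350 of their 371 UMIs in Ctrl and 194 of 199 in dKO. Of the 18 FAP markers 0 had no UMI in Ctrl members and 3 (Pi16, Dpp4 and Inmt) had none in dKO, of the 16 macrophage markers 2 and 6 had none (Adgre1 in both), and of the 20 endothelial markers 4 and 2 had none (Vwf and Sox17 in dKO). In total 13 Ctrl and 3 dKO members held at least 10 UMIs of Dcn, Clu, Acta1 or Fabp4, and they are called flagged cells below. Fabp4 had a UMI in 53.8% of all Ctrl and 57.5% of all dKO members, and Clu in 23.1% and 30%. Whether the RNA that flagged these cells came from other cells was not tested.

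Members were split on the channel and the myosin. Cells with at least 2 UMIs of Myh11 (smooth muscle myosin heavy chain) and none of Kcnj8 were called smooth muscle cells, and cells without Myh11 and with a UMI of Kcnj8 or Abcc9 were called pericytes. Kcnj8 (chromosome 6, 142564837 to 142571614, minus strand; GRCm38) and Abcc9 (chromosome 6, 142587862 to 142702315, minus strand) are neighbours on the genome, whereas Myh11 lies elsewhere (chromosome 16, 14194535 to 14291372, minus strand). This gave 60 Ctrl and 27 dKO smooth muscle cells, 20 and 5 pericytes, and 24 and 8 cells that met neither definition. Smooth muscle cells were deeper, with a median of 6683 UMIs in Ctrl and 5644 in dKO, than pericytes, with 2525 and 1889. Being also more numerous, the smooth muscle cells supplied 65.8% of all member UMIs in Ctrl and 79.8% in dKO, and the pericytes 8.39% and 4.78%.

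The plot of 6 genes in every member shows both kinds by genes outside the rule, with Rgs5 of the rule beside them. Acta2 in Ctrl smooth muscle cells had a lowest, median and highest level of 104, 12398 and 39383 CPM per cell, and in dKO smooth muscle cells 0, 11244 and 33859.7 CPM. In pericytes the same levels were 0, 0 and 5291 CPM in Ctrl and 0, 0 and 2647 CPM in dKO, so most pericytes had no Acta2 UMI although the groups overlapped at their edges. The reverse held for Steap4, a metalloreductase, which had a UMI in 20 of 20 Ctrl and 5 of 5 dKO pericytes and in 16 of 60 and 4 of 27 deeper smooth muscle cells. Vtn, the matrix protein vitronectin, had a UMI in 19 of 20 and 4 of 5 pericytes, in 17 of 60 and 7 of 27 smooth muscle cells, and in 3.17% and 3.30% of endothelial cells, whose median depth was 4792 and 4350.5 UMIs. Endothelial cells were gated here by a UMI of Cdh5, and FAPs by a UMI of Pdgfra, in both cases with none of the other 3 exclusion genes and under 3 mural markers. Neither gene was limited to pericytes, since FAPs, with a median depth of 12709 and 12918.5 UMIs, held a UMI of Vtn in 39.8% and 36.7% of cells and of Steap4 in 62.6% and 67.9%. The cells that met neither definition were mixed: their Acta2 ranged from 0 to 14998 CPM in Ctrl, and 23 of 24 Ctrl and 8 of 8 dKO cells held Rgs5. The dKO cells called smooth muscle included 2 without any Acta2 UMI, and both held Rgs5, Pdgfrb, Vtn and Steap4 beside their Myh11. In Ctrl, 1 cell called smooth muscle by 3 Myh11 UMIs held 1 UMI of Acta2, 0 of Tagln and Myl9, and 196 of Clu.

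**Figure D1:**
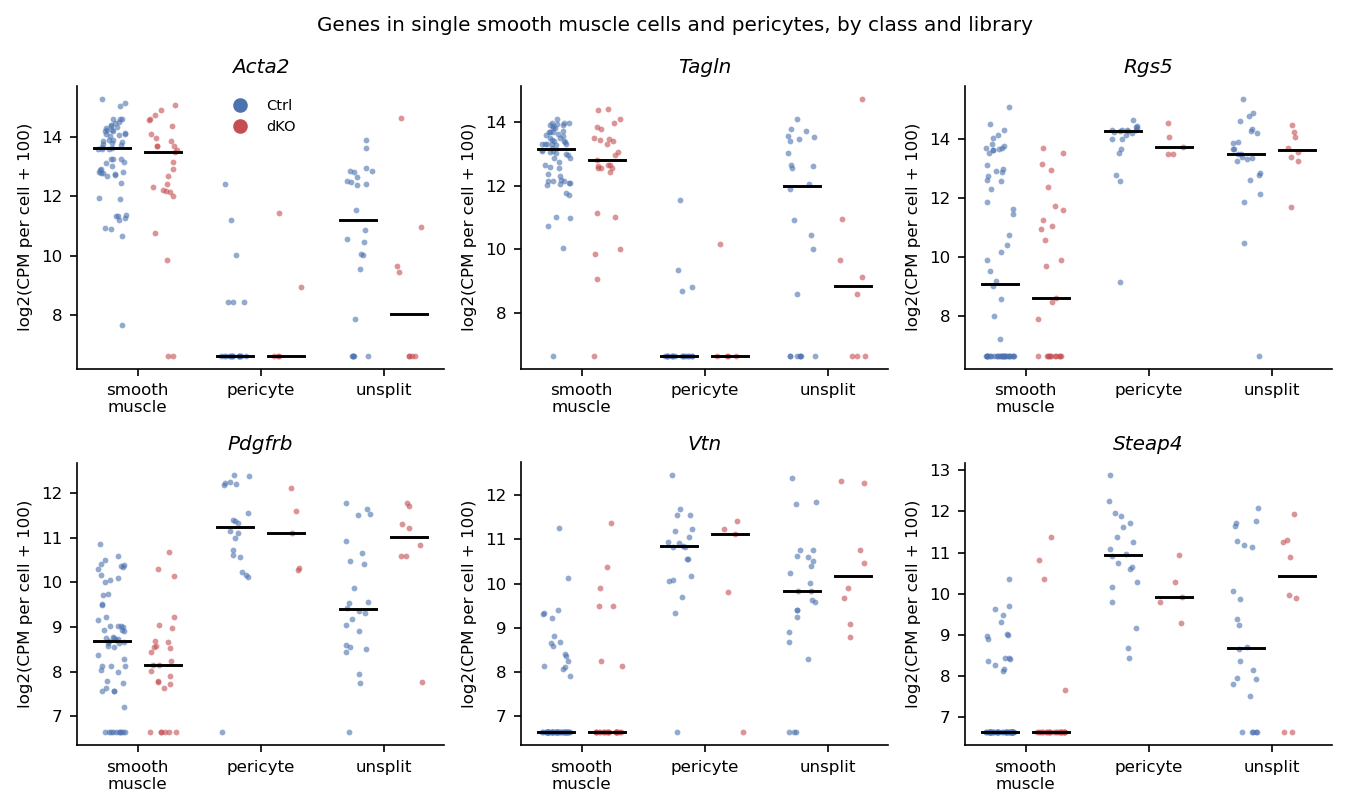
Level of Acta2, Tagln, Rgs5, Pdgfrb, Vtn and Steap4 in every smooth muscle cell, pericyte and unsplit member, as log2(CPM per cell + 100), with 1 point per cell, blue for Ctrl and red for dKO, and a black bar at the median. Acta2 and Tagln are high in smooth muscle cells and mostly at the floor in pericytes, Pdgfrb, Vtn and Steap4 are higher in pericytes, with Vtn and Steap4 mostly at the floor in smooth muscle cells but Pdgfrb detected in 50 of 60 and 21 of 27 of them, and the unsplit cells spread over both ranges; Rgs5 is a gene of the rule.

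Contractile and actin-regulating genes were higher in smooth muscle cells than in pericytes of both libraries. The classification used Myh11, Kcnj8 and Abcc9 and the cells were drawn by 13 genes, so these differences describe the 2 kinds and were not tested. At least 2-fold higher in smooth muscle cells of both libraries were 104 of 1051 genes (9.9%), and at least 2-fold lower 51 (4.85%). Tagln stood at 9689.5 CPM in smooth muscle cells and 203 CPM in pericytes of Ctrl, and 10304 and 200.2 CPM in dKO. Its log2 ratio was 5.58 (4.74 to 6.58) in Ctrl and 5.69 (3.83 to 8.73) in dKO. Acta2 stood at 14605 CPM in smooth muscle cells and 516 CPM in pericytes of Ctrl, and 14898 and 601 CPM in dKO, with log2 ratios of 4.82 (4.29 to 5.41) and 4.63 (3.51 to 6.08). The dKO intervals are wide because its 5 pericytes held 9988 UMIs in all, 2 of Tagln and 6 of Acta2 among them.

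Behind these came Tpm2, the smooth muscle tropomyosin, at 6145 CPM in smooth muscle cells and 589 CPM in pericytes of Ctrl, and 5566 and 601 CPM in dKO. The actin-severing protein destrin (Dstn) was at 3078 CPM in smooth muscle cells and 295 CPM in pericytes of Ctrl, and 2471 and 100.1 CPM in dKO, where 1 UMI in pericytes gave a log2 ratio of 4.63 (2.14 to 9.93). Myl6, the essential myosin light chain whose promoter is shown above, was at 6975 CPM in smooth muscle cells and 939 CPM in pericytes of Ctrl, and 6106 and 901 CPM in dKO. All 3 genes were also detected in pericytes, at a lower level. Mustn1, a small nuclear protein of the musculoskeletal system, stood at 2151 and 2081 CPM in smooth muscle cells. It had 1 UMI in all Ctrl pericytes, a log2 ratio of 6.87 (4.39 to 12.17), and 0 in dKO pericytes, which makes it at least 6.93-fold higher when 0 is set to 3 counts over the group. Crispld2, a secreted glycoprotein, was at 2780.2 and 3737 CPM in smooth muscle cells, at least 50.3-fold above Ctrl pericytes, which held 0 UMIs, and at a log2 ratio of 5.22 (2.74 to 10.53) to dKO pericytes, which held 1. The remaining genes at this end were Pcp4l1, the laminin receptor Bcam, the LIM protein Csrp2 and the metallothionein Mt1. With them were the synuclein Sncg, Gabarap of autophagy, the nucleotide enzyme Impdh2 and the transcription factor Klf4. The dKO log2 ratios of these genes lay between 2.42 (0.55 to 5.48) for Klf4 and 3.38 (0.88 to 8.69) for Pcp4l1. Most of these had 1 or 2 UMIs in dKO pericytes, and all their intervals stayed above 0. All 15 stayed past 2-fold in both libraries when the flagged cells were left out. In these classes they were 5 smooth muscle cells and 4 pericytes in Ctrl and 2 and 0 in dKO.

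Among the genes higher in pericytes were several for receptors and a few for enzymes, named one by one, and no such class of genes was tested. Steap4 stood at 2026 CPM in pericytes and 103 CPM in smooth muscle cells of Ctrl, and at 1101 and 96.0 CPM in dKO. Vtn was at 1565 against 124 CPM in Ctrl and 1702 against 132 CPM in dKO. Pdgfrb, the receptor that recruits pericytes to capillaries, was at 2265 against 364 CPM and 2203 against 239.9 CPM. In all 3 the pericyte value was several times the smooth muscle value in both libraries, and the counting interval of the log2 ratio of smooth muscle cells over pericytes lay below 0. The endothelin receptor Ednrb was at 1621 against 251 CPM in Ctrl and 2703 against 264 CPM in dKO. The VEGF and semaphorin co-receptor Nrp1 was at 976 against 119.7 CPM and 1201 against 71.97 CPM. The haem protein cytoglobin (Cygb) was at 994 against 79.8 CPM and 801 against 102 CPM. Lipoprotein lipase (Lpl), the glucocorticoid receptor Nr3c1 and the chaperone Hspe1 were on the same side, with log2 ratios of -2.50 to -2.06 in Ctrl.

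A few genes at the pericyte end rested on single cells. Complement C3 had 84 UMIs in Ctrl pericytes, all in 1 cell, and 0 in dKO pericytes. Of the 229 Dcn UMIs of Ctrl pericytes, 99.1% were in 1 cell, and dKO pericytes had 0. Ccl2 had 117 UMIs in 5 Ctrl pericytes and 0 in dKO pericytes, so its dKO value is only a limit. Of the 21 Hspe1 UMIs of dKO pericytes, 90.5% were in 1 cell. The chemokine Cxcl12, which retains haematopoietic and progenitor cells, stood at 5359 CPM in Ctrl pericytes with 73.5% of its UMIs in 1 cell. Without the flagged cells it was at 1648 CPM, still 12.0-fold above smooth muscle cells, and in dKO it was 7.88-fold above them. Cxcl12 was therefore higher in pericytes with and without those cells, and C3 had no UMI left in Ctrl pericytes without them. The ratio of Dcn fell short of 2-fold in Ctrl (1.92-fold), but Dcn is a gene that flagged these cells, so the gate itself lowers it.

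**Figure D2:**
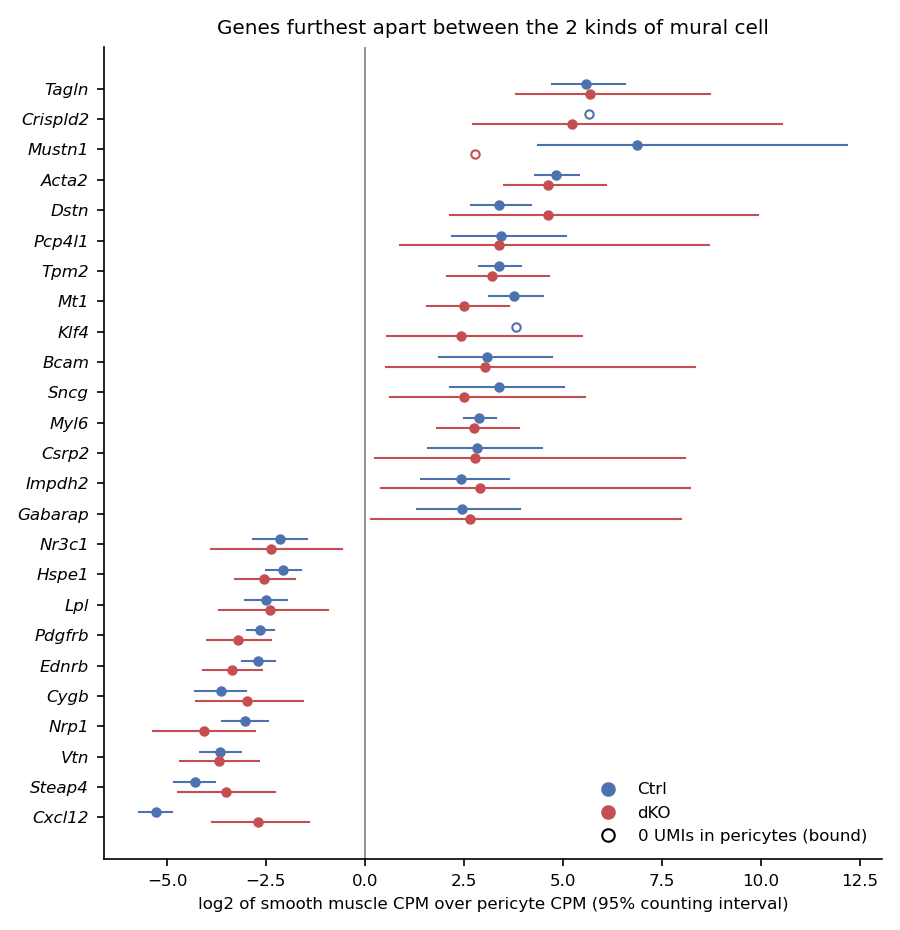
Log2 of the CPM of smooth muscle cells over that of pericytes for the 25 genes reported here other than C3, Dcn and Ccl2, in Ctrl (blue) and dKO (red), with 95% counting intervals as lines and open circles where pericytes held 0 UMIs (set to 3 counts, a bound). The genes were chosen for a ratio in the same direction in both libraries, so every point lies on the same side of 0 in both by choice.

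Summed lists gave the same picture. Of the 32 contractile genes kept, 20 were at least 2-fold higher in smooth muscle cells of both libraries and 0 were lower. Beside them stand 9.9% and 4.85% of the 1051 genes with at least 100 UMIs over smooth muscle cells and pericytes. The summed contractile genes were at a log2 ratio of 2.64 (2.53 to 2.76) in Ctrl and 2.31 (2.07 to 2.55) in dKO. Of 14 pericyte genes kept, 5 were at least 2-fold lower in smooth muscle cells of both libraries and 1 (Gm13889) was higher. The basement membrane genes, which encode type IV collagens, laminins and their partners, were lower in smooth muscle cells, with log2 ratios of -0.56 (-0.65 to -0.47) in Ctrl and -0.54 (-0.76 to -0.32) in dKO. The inducible heat shock genes were also lower there, at -0.63 (-0.70 to -0.56) in Ctrl and -1.37 (-1.49 to -1.24) in dKO, where 1 cell held 63.6% of the pericyte UMIs of the list. The vasomotor genes, made up of receptors, channels and cyclic GMP enzymes, were at -0.32 (-0.45 to -0.17) in Ctrl and -0.68 (-0.98 to -0.38) in dKO. By contrast the Notch genes differed in sign between the libraries, at 0.52 (0.14 to 0.91) in Ctrl and -0.34 (-0.91 to 0.28) in dKO.

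Smooth muscle cells varied among themselves along Rgs5. Rgs5, which limits signalling through Gq- and Gi-coupled receptors and is usually named a pericyte gene, was absent from 26 of 60 Ctrl and 11 of 27 dKO smooth muscle cells and had at least 5 UMIs in 29 and 10 of them. The cells without Rgs5 were the deeper ones, with median depths of 7503.5 and 8183 UMIs against 5627 and 4917 in those with at least 5, called Rgs5-high below. This division was made after the values were seen, and Rgs5 is a gene of the rule, so it is described only. At least 2-fold higher in the cells without Rgs5 in both libraries were 31 of 812 genes (3.82%), and 24 (2.96%) were at least 2-fold lower. Some genes of pericytes, but not all, lay along the same axis. Of the 17 Ctrl and 7 dKO smooth muscle cells with a UMI of Vtn, 16 and 6 were Rgs5-high, and 0 lacked Rgs5 in either library. Of the 16 and 4 with Steap4, 15 and 4 were Rgs5-high, and of the 11 and 4 with Abcc9, a gene of the rule, 9 and 3 were. Myh11, also of the rule, had a median of 19 and 14 UMIs per Rgs5-high cell against 45 and 34 per cell without Rgs5, and 7 of 29 and 3 of 10 Rgs5-high cells held only 2 to 4 of its UMIs. Cspg4, the NG2 proteoglycan of pericytes, was on the other side, with a UMI in 19 of 29 Rgs5-high cells and 24 of 26 without Rgs5 in Ctrl (311 and 369 CPM) and in 4 of 10 and 11 of 11 in dKO (145 and 440.1 CPM). The pericyte list as a sum, without over with Rgs5, was at a log2 ratio of -0.23 (-0.33 to -0.13) in Ctrl and -0.30 (-0.47 to -0.12) in dKO. The part of pericyte RNA or of the split in the differences along Rgs5 was not tested.

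Actin-associated genes were higher in the cells without Rgs5. Acta2 was at 19909 CPM in them and 8399 CPM in Rgs5-high cells of Ctrl, and at 20538 and 6722 CPM in dKO. The actin crosslinker filamin A (Flna) was at 3544 and 1259 CPM in Ctrl and 3301 and 1282 CPM in dKO. Both genes were higher without Rgs5 by more than 2-fold in each library. Smoothelin (Smtn), a marker of the contractile state, was at 568 and 153 CPM in Ctrl and 416 and 124 CPM in dKO. The intermediate filament protein synemin (Synm), the adhesion proteins Sorbs2 and Nexn, the tetraspanin Cd9, the calcium kinase Camk2g, Dstn and elastin (Eln) were on the same side, while Id2, an inhibitor of helix-loop-helix factors with the largest Ctrl ratio, had only 7 UMIs without Rgs5 and 1 with it in dKO. As sums, contractile genes were at a log2 ratio of 1.01 (0.97 to 1.04) in Ctrl and 1.12 (1.05 to 1.19) in dKO.

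Endothelin receptor, heat shock and interferon genes were higher in the Rgs5-high cells. Ednrb was at 545 CPM in them and 30.7 CPM in cells without Rgs5 in Ctrl, and at 558 and 73.3 CPM in dKO. Phlda1, an early response gene, was at 796 and 87.1 CPM in Ctrl and 1034 and 110.0 CPM in dKO. It had a UMI in 23 of 29 and 7 of 10 Rgs5-high cells. In dKO 1 cell held 48% of its UMIs in Rgs5-high cells, and 1 cell held 77.8% of those in cells without Rgs5. The heat shock protein Hspa1b was at 6001 and 1587 CPM in Ctrl and 6329 and 1137 CPM in dKO. Ifitm3, whose promoter is shown above, was at 1493 and 461 CPM in Ctrl and 3185 and 1125 CPM in dKO. It had a UMI in 28 of 29 and 10 of 10 Rgs5-high cells and in 21 of 26 and 10 of 11 cells without Rgs5, so it was common in both. In dKO 2 of the Rgs5-high cells held 66.9% of its 154 UMIs there. Without the 2 cells that held most Ifitm3 in each group, a choice made after the values were seen, it was at 1056 and 317 CPM in Ctrl and at 1514 and 974 CPM in dKO, below 2-fold in dKO (1.55-fold). The antigen-presenting light chain B2m and the ubiquitin-like Isg15 were on the same side, and the summed interferon genes were at a log2 ratio, without over with Rgs5, of -1.39 (-1.58 to -1.19) in Ctrl and -1.99 (-2.23 to -1.76) in dKO. One Rgs5-high cell held 21.7% of the UMIs of that list in Ctrl and 38.0% in dKO, and without the 2 cells with most UMIs of the list in each group the log2 ratios were -1.13 and -0.99. Markers of other cells were higher on the same side. The log2 ratios were -0.62 (-1.07 to -0.18) and -2.74 (-3.51 to -2.04) for endothelial markers, with 63.9% of those of the dKO Rgs5-high cells in 1 cell. They were -0.82 (-1.07 to -0.57) and -0.76 (-1.18 to -0.34) for FAP markers and -1.31 (-1.83 to -0.81) and -0.94 (-2.04 to 0.15) for macrophage markers, and their part in the result was not tested. Flagged cells held 17.1% of the UMIs of Ctrl Rgs5-high cells and 20.2% in dKO, against 4.97% and 10.2% of those without Rgs5. Some of the genes at this end rested on single cells, with 98.7% of the dKO UMIs of the eotaxin Ccl11 and 92.2% of those of Fabp4 in 1 cell. Without the flagged cells, 12 of the 15 stayed past 2-fold in both libraries. The ratio of Rgs5-high cells over cells without Rgs5 was then 1.78 in Ctrl and 6.52 in dKO for Isg15, 1.16 and 4.19 for the lipid carrier Apoe, and 1.70 and 0.423 for the haem oxygenase Hmox1, which changed side in dKO. That of Fabp4 was 5.43 and 2.28, but Fabp4 is a gene that flagged these cells, so its ratio is no separate check. The plot of Rgs5 against Acta2, Flna and Ednrb shows cells at intermediate levels between both ends.

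**Figure D3:**
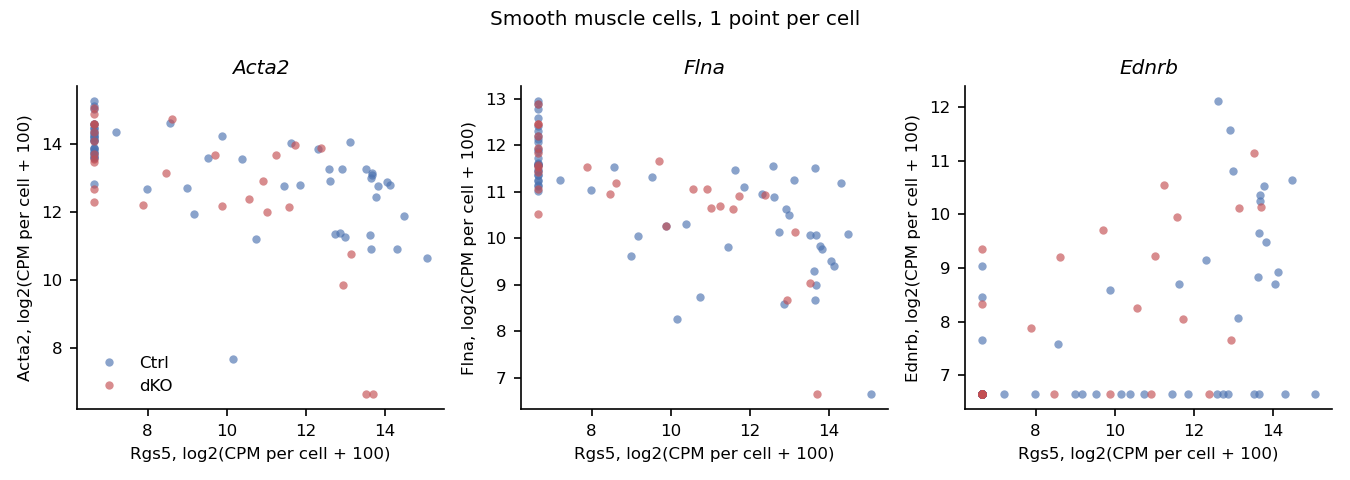
Level of Acta2, Flna and Ednrb (y axes) against Rgs5 (x axes) in each of the 60 Ctrl (blue) and 27 dKO (red) smooth muscle cells, as log2(CPM per cell + 100). Cells without Rgs5 line up at the left edge with high Acta2 and Flna, Ednrb is detected mainly in cells with Rgs5, and the 2 dKO cells without Acta2 lie at high Rgs5.

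Turning to the genotypes, mural cells made up a smaller share of the dKO library. They were 104 of 4335 Ctrl cells, or 2.40% (1.96 to 2.90), and 40 of 3329 dKO cells, or 1.20% (0.860 to 1.63), with Clopper-Pearson intervals, dKO minus Ctrl being -1.20 percentage points (-1.79 to -0.600, Newcombe). Among cells without Ptprc they were 4.21% and 2.05%. The denominator decided the size of the difference. Against endothelial cells (Cdh5 gate, 473 Ctrl and 212 dKO cells) members were 18.02% of both together in Ctrl and 15.9% in dKO, dKO minus Ctrl being -2.15 points (-7.36 to 3.66) whose counting interval included 0. Against FAPs (Pdgfra gate, 981 and 1022 cells) they were 9.59% and 3.77%, dKO minus Ctrl being -5.82 points (-7.96 to -3.73). The share of mural cells was therefore lower against FAPs and against all cells, while against endothelial cells a difference was not detectable at these cell numbers. The sort, the pool of mice and the genotype cannot be told apart in these shares. Pericytes were 25% of the split members in Ctrl (20 of 80; 15.99 to 35.9) and 15.6% in dKO (5 of 32; 5.28 to 32.8), dKO minus Ctrl being -9.38 points (-23.0 to 8.72) whose interval included 0.

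Yy1, the gene targeted in MuSCs (chromosome 12, 108792973 to 108820148, plus strand), was at 227 CPM (192 to 267) for Ctrl members and 187 CPM (133 to 255) for dKO members, a log2 ratio of -0.28 (-0.83 to 0.23) whose interval included 0. In FAPs its log2 ratio was 0.052 (-0.04 to 0.14). Deletion was directed to MuSCs, and where the counted reads lie relative to the floxed part of Yy1 is not given in the sources used here, so the value does not check it.

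Few genes differed by 2-fold between the genotypes. Of 1387 genes with at least 100 UMIs in members of both libraries together, 14 (1.01%) were at least 2-fold higher and 33 (2.38%) at least 2-fold lower in dKO, and the median log2 ratio was 0.029. Without the cell that held most UMIs of each gene the counts were 5 higher and 42 lower. In smooth muscle cells alone the shares were 1.36% and 1.67% of 958 genes, and in pericytes 7.5% and 15% of only 40 genes. FAPs gave 0.752% and 0.55%, endothelial cells 1.24% and 1.35%, and all cells other than members 0.944% and 2.71%. Each of these was over more genes and more summed UMIs. The 15 genes furthest in each direction are named, after 104 genes with over 25% of their UMIs in 1 cell of either library were set aside.

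Of the genes not set aside, the one furthest up in dKO members was Hes1 (chromosome 16, 30064384 to 30067796, plus strand), the transcriptional repressor that Notch receptors switch on. It was at 184 CPM (152 to 220.0) for Ctrl and 497 CPM (406 to 603) for dKO, a log2 ratio of 1.44 (1.04 to 1.83). Per smooth muscle cell, the lowest, median and highest levels were 0, 106 and 1054 CPM in Ctrl and 0, 185 and 3666 CPM in dKO, so that the cells overlapped and the dKO cells reached further up. Summed over smooth muscle cells it was at 148 and 564 CPM, a log2 ratio of 1.93 (1.46 to 2.42), and a UMI was found in 31 of 60 Ctrl and 16 of 27 dKO cells. In the other vessel and stromal cells it was on the opposite side, at -0.19 (-0.33 to -0.051) in FAPs and -0.38 (-0.66 to -0.11) in endothelial cells; the difference between cell types was not tested. Without the cell that held most of its UMIs in each library the log2 ratio was 1.28, and as a mean over cells it was 0.98.

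Rrad, a small GTPase that restrains voltage-gated calcium channels, was at 658 CPM (597 to 724) for Ctrl and 1421 CPM (1264 to 1592) for dKO. In smooth muscle cells alone its log2 ratio was 0.61 (0.35 to 0.87), below 2-fold. The fibrinogen-like protein Fgl2 was at 409 CPM (362 to 462) and 885 CPM (762 to 1022). It was higher in dKO in FAPs and endothelial cells as well, with log2 ratios of 0.64 and 0.71. The nucleoside enzyme Pnp had a log2 ratio of 1.38 (0.82 to 1.93), the zinc finger regulator Zbtb16 one of 1.06 (0.48 to 1.62) and the kinase Pim3 one of 1.02 (0.50 to 1.53). The 9 other genes at this end, among them the metalloprotease Adamts9, the endothelial early response gene Apold1, the oxidative stress regulator Nfe2l2, the transglutaminase Tgm2 and the forkhead factor Foxc1, had log2 ratios between 0.86 (Nsd3) and 1.20 (Pop5). Of the 15 genes, 15 were also higher in dKO smooth muscle cells, 9 of them by 2-fold. Smooth muscle cells supply most of the member UMIs, so this count is not independent. In FAPs 11 of the 15 were higher and in endothelial cells 8, none by 2-fold. Over all genes tested there, 39.7% were above 0 in FAPs and 47.4% in endothelial cells.

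Marcks, an actin-binding substrate of protein kinase C (chromosome 10, 37133375 to 37138920, minus strand), was furthest down among the genes not set aside. It was at 439 CPM (389 to 493) for Ctrl members and 148 CPM (101 to 210.5) for dKO members, a log2 ratio of -1.57 (-2.15 to -1.03). In smooth muscle cells it was at 267 and 30.0 CPM, and the 29 Ctrl Rgs5-high cells held it at 523 CPM against 62.0 CPM in the 10 dKO cells of that kind. A single Ctrl cell, which also carried Clu, held 45.8% of the UMIs of those 29 cells. Without the flagged cells, Marcks was at 283 and 77.7 CPM in the Rgs5-high cells, and its log2 ratio over all members was -1.25. Per smooth muscle cell it was at most 4575 CPM in Ctrl, in that same cell, and 429 CPM in dKO, with a median of 0 in both, and a UMI was found in 18 of 60 and 4 of 27 cells. In pericytes it was at 939 and 901 CPM, a log2 ratio of -0.06 (-1.27 to 0.98). The collagen receptor subunit Itga1, which anchors mural cells to basement membrane, was at 321 CPM (279 to 368) and 134 CPM (89.0 to 194). It was lower in dKO elsewhere too, with log2 ratios of -0.80 in FAPs, -0.65 in endothelial cells and -1.24 over all cells other than members. The actin regulator Inf2 had a log2 ratio of -1.24 (-2.20 to -0.40) and the septin Sept4 one of -1.52 (-2.57 to -0.62). Eln, the elastic fibre protein laid down by smooth muscle, was at 278 CPM (239 to 322) and 129 CPM (85.1 to 188).

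The inflammatory genes Cxcl1 and Il6 were lower in dKO mural cells and higher in dKO FAPs and endothelial cells, a difference between cell types that was not tested. Cxcl1, a neutrophil-attracting chemokine, was at 2640.2 CPM (2516 to 2768) for Ctrl members and 1325 CPM (1174 to 1491) for dKO members, a log2 ratio of -0.99 (-1.18 to -0.81), but at 0.46 (0.44 to 0.48) in FAPs and 1.28 (1.14 to 1.41) in endothelial cells. Il6, the cytokine interleukin 6, was at 1088 CPM (1009 to 1171) and 536 CPM (441 to 645), a log2 ratio of -1.02 (-1.32 to -0.73), against 0.35 (0.27 to 0.43) and 0.53 (0.35 to 0.71) in FAPs and endothelial cells. The sums and the share of cells with a UMI did not move together. Cxcl1 was detected in 53 of 104 Ctrl members (51.0%) and 25 of 40 dKO members (62.5%), and Il6 in 44 (42.3%) and 18 (45.0%). Keeping the Cdh5-carrying cells took Il6 to -0.03 and Cxcl1 to -0.60. The interleukin 1 receptor Il1r1 had a log2 ratio of -0.99 (-1.68 to -0.37), and 0.064 with those cells kept. The glypican Gpc6, the respiratory subunit Ndufb3, the ribosomal protein Rpl34 (which shares reads with near-identical copies and is uncertain), Rtraf, Pdcd10, Trip11 and Myadm made up the rest, with log2 ratios between -1.23 (Rpl34) and -0.87 (Myadm). Of the 15 genes at this end, 15 were also lower in dKO smooth muscle cells, 9 of them by 2-fold, which again is not independent. In FAPs 11 of them were lower, 0 by 2-fold, and in endothelial cells 8, 1 by 2-fold (Sept4, -1.43). Only 39.7% of all genes tested in FAPs and 47.4% of those in endothelial cells were above 0, so most genes there were not higher in dKO either.

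**Figure D4:**
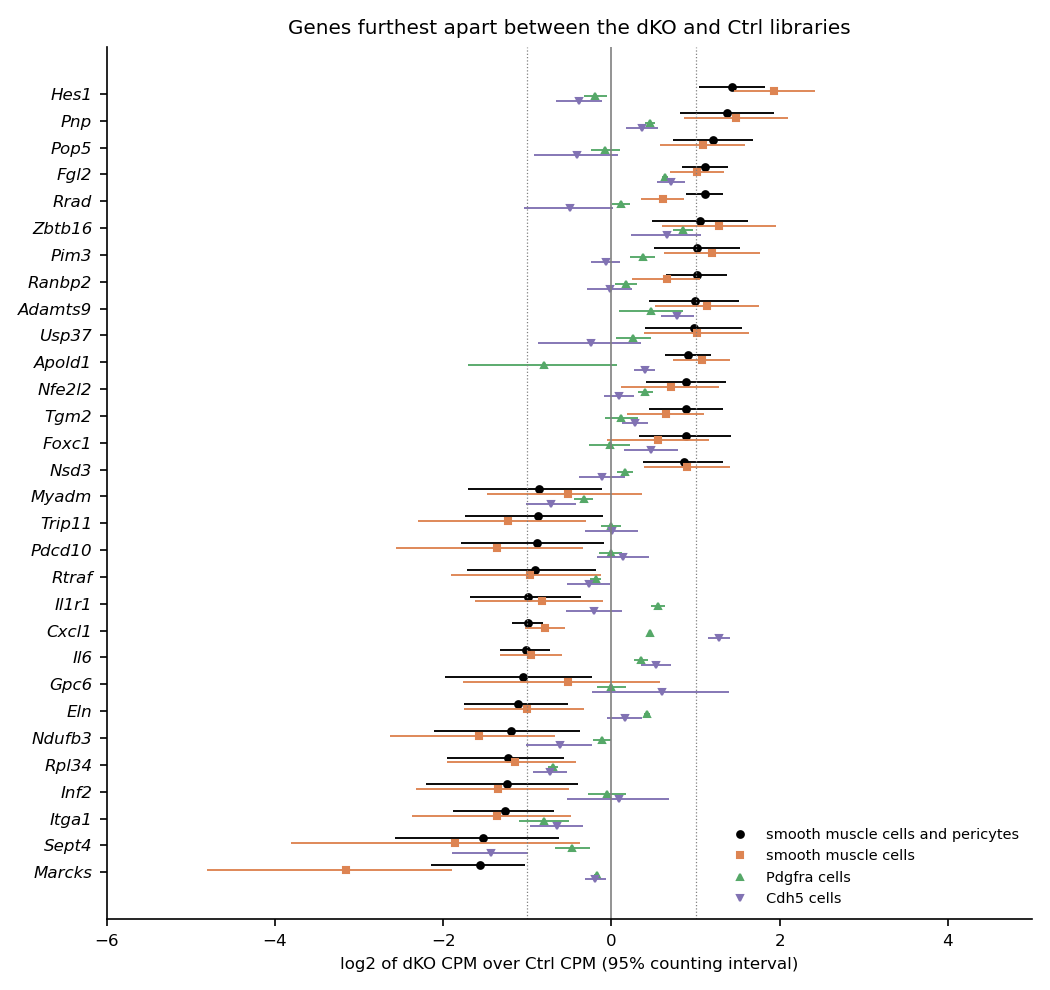
Log2 of dKO CPM over Ctrl CPM for the 30 genes named at either end, in smooth muscle cells and pericytes together (black), smooth muscle cells alone (orange), FAPs (Pdgfra gate, green) and endothelial cells (Cdh5 gate, purple), with 95% counting intervals as lines and dotted lines at 2-fold. In mural cells Hes1 is highest and Marcks lowest, and Cxcl1 and Il6 lie below 0 in mural cells and above 0 in FAPs and endothelial cells.

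The contractile genes differed less in sum than the matrix, chemokine and interferon lists below. They summed to 61186 CPM in Ctrl members and 65219 CPM in dKO members, a log2 ratio of 0.092 (0.064 to 0.12). Of the 32 contractile genes kept, 0 were 2-fold apart, which is near the 1.01% higher and 2.38% lower of all genes, and their median log2 ratio was 0.026, beside 0.029 over all genes. In smooth muscle cells alone the summed ratio was -0.029 (-0.06 to 0.00081). Smooth muscle cells held 79.8% of the member UMIs in dKO against 65.8% in Ctrl, and the part of this in the sum over members was not tested. Acta2 was at 11183 CPM (10927 to 11444) and 13019.9 CPM (12535 to 13518), Myl9 at 3451 CPM (3309.6 to 3597) and 3233 CPM (2994 to 3487), and the light chain kinase Mylk at 2489 CPM (2369 to 2613) and 2191 CPM (1995 to 2401). The intermediate filament gene Des, also a gene of myogenic cells, had a log2 ratio of 0.78 (0.52 to 1.04). The dystrophin complex genes, which mdx mice cannot assemble fully, had a summed log2 ratio of -0.033 (-0.16 to 0.092), and Dmd itself was at 158 CPM (128 to 191) and 90.9 CPM (54.7 to 142).

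Among vasomotor genes, 1 of 18 kept was 2-fold lower and 0 higher, which is near the 2.38% and 1.01% of all genes, with a median log2 ratio of -0.14 beside 0.029. That gene was Rgs16, which like Rgs5 dampens G-protein signals, at 392 CPM (346 to 444) and 62.2 CPM (33.1 to 106), and 38.5% of those dKO UMIs came from 1 cell. The endothelin receptor Ednrb was at 378 and 550.1 CPM and Rgs4 at 408 and 564 CPM. Rgs5 itself, a gene of the rule, was at 6373 CPM (6179.6 to 6570.1) for Ctrl and 3736 CPM (3478 to 4007) for dKO. The Notch genes, with Notch3 of the rule included, summed to 1534 and 2009 CPM, a log2 ratio of 0.39 (0.22 to 0.56). Of 5 Notch genes kept, 1 (Hes1) was 2-fold higher and 0 lower, beside 1.01% and 2.38% of all genes, and their median log2 ratio was 0.14 beside 0.029. Notch3 was at 772 and 851 CPM, the ligand Jag1 at 195 and 148 CPM, and the targets Heyl and Nrarp at 134 and 148 CPM and 341 and 478 CPM. The log2 ratios of Notch3, Jag1, Heyl and Nrarp were 0.14 (-0.11 to 0.39), -0.39 (-1.01 to 0.18), 0.14 (-0.50 to 0.75) and 0.49 (0.13 to 0.83), and of these 4 only the interval of Nrarp lay above 0. Transcription factors of the mural lineage summed to 7446 and 8801 CPM, with Klf4 at 615 and 1004 CPM and Id3 at 1662 and 2133 CPM.

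Matrix genes were lower in dKO members. The fibrillar and elastic matrix genes summed to 7462 CPM in Ctrl and 4008 CPM in dKO, a log2 ratio of -0.90 (-1.004 to -0.79). Of 17 kept, 9 were 2-fold lower and 0 higher, with a median log2 ratio of -1.09, beside 2.38% of all genes 2-fold lower. Type III collagen (Col3a1) was at 1179 CPM (1097 to 1265) and 426 CPM (342 to 524), type I collagen (Col1a1) at 256 CPM (219 to 299) and 158 CPM (109 to 222), and periostin (Postn) at 270.4 CPM (232 to 314) and 81.3 CPM (47.4 to 130.2). FAPs are the main source of these genes in muscle, and the FAP markers, which include Col1a1 and Col3a1, were lower as well, at 3216 and 1593 CPM in members. In smooth muscle cells alone the summed log2 ratio was -0.50 (-0.65 to -0.36), and without the flagged cells it was -0.77. The median member held 4293 CPM of these genes in Ctrl and 3845 CPM in dKO, a much smaller gap than that of the sums; the part of FAP RNA in the result was not tested. The basement membrane genes were at 17112 and 14211 CPM, a log2 ratio of -0.27 (-0.33 to -0.21). Of 19 kept, 1 was 2-fold lower and 0 higher, near the shares of all genes, and 2 were above 0, beside 53.3% of all genes. Sparc was at 4187 and 2549 CPM and Col4a1 at 1781 and 1315 CPM, and the list was lower in FAPs and endothelial cells too, at -0.21 and -0.30.

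Chemokine and cytokine genes summed to 10337 CPM in Ctrl and 6289.9 CPM in dKO, a log2 ratio of -0.72 (-0.80 to -0.63). Of 15 kept, 7 were 2-fold lower and 1 higher, with a median log2 ratio of -0.99, beside 2.38% and 1.01% of all genes and a median of 0.029. Ccl2 was at 698 and 100.4 CPM, Cxcl12 at 658 and 273 CPM and Ccl19 at 589 and 196 CPM. In these 3 genes 35.6%, 50.2% and 44.1% of the Ctrl UMIs were in 1 cell. The gene on the other side was Ccl11, at 284 and 641 CPM, with 56.7% of the dKO UMIs from 1 cell. The median member held 3748 CPM of the list in Ctrl and 3917 CPM in dKO, so the median cell did not share the direction of the sums. In FAPs and endothelial cells the list was higher in dKO, at 0.40 (0.40 to 0.41) and 0.48 (0.45 to 0.52), and the FAP and macrophage markers in members were at 3216 and 572 CPM in Ctrl and 1593 and 273 CPM in dKO, whose part in the result was not tested.

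Interferon-stimulated genes were higher in dKO members, at 3892 and 5682 CPM, a log2 ratio of 0.55 (0.45 to 0.65). Ifitm3 was at 1370.3 CPM (1282 to 1464) and 1975 CPM (1789.5 to 2175), Isg15 at 176 CPM (145 to 212) and 297 CPM (227 to 380.2), and Ifi27l2a at 119 CPM (93.9 to 149) and 454 CPM (368 to 555), with 42.9% of its Ctrl UMIs in a single cell. Ifitm2, a close relative of Ifitm3, was at 576 and 430.5 CPM, on the other side, and the counting of reads shared by these near copies is uncertain. Of 8 interferon genes kept, 1 was 2-fold higher and 0 lower, beside 1.01% and 2.38% of all genes, with a median log2 ratio of 0.49 beside 0.029. The list was at 0.84 (0.70 to 0.97) in smooth muscle cells, at 0.70 (0.69 to 0.71) in FAPs and at 0.17 (0.14 to 0.20) in endothelial cells, so it was higher in the dKO library in these cells too. The log2 ratio in members was 0.30 without the flagged cells and 0.20 when cells with Pecam1, Lyz2, Cd52, Clec3b or Myod1 were left out. MHC class I genes were at 0.20 (0.065 to 0.33), and at -0.12 under the last of these.

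Immediate early and heat shock genes, which dissociation is known to induce, were abundant in the mural cells of both libraries. Immediate early genes summed to 24790.4 and 27011 CPM and heat shock genes to 23715 and 26422 CPM, with log2 ratios of 0.12 (0.08 to 0.17) and 0.16 (0.11 to 0.20). The immediate early ratio was -0.040 without the flagged cells. Fos was at 1931 and 1708 CPM and Hspa1a at 3436 and 3798 CPM. Cell cycle genes were rare, at 442 and 359 CPM, and Mki67 had 1 UMI in each library. The genes of PDGF, angiopoietin and VEGF signalling had a log2 ratio of 0.14 (0.053 to 0.23), led by the metalloprotease Adamts1 at 2439 and 3286 CPM, and those of TGF-beta and BMP signalling 0.19 (0.059 to 0.31), with the matricellular gene Ccn2 at 69.5 and 258 CPM. Metabolic genes were at 0.069 (0.0029 to 0.13), but at -0.12 with the Cdh5-carrying cells kept and -0.10 as a mean over cells. The marker lists of smooth muscle cells and pericytes were at 0.13 (0.093 to 0.17) and 0.02 (-0.053 to 0.092).

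**Figure D5:**
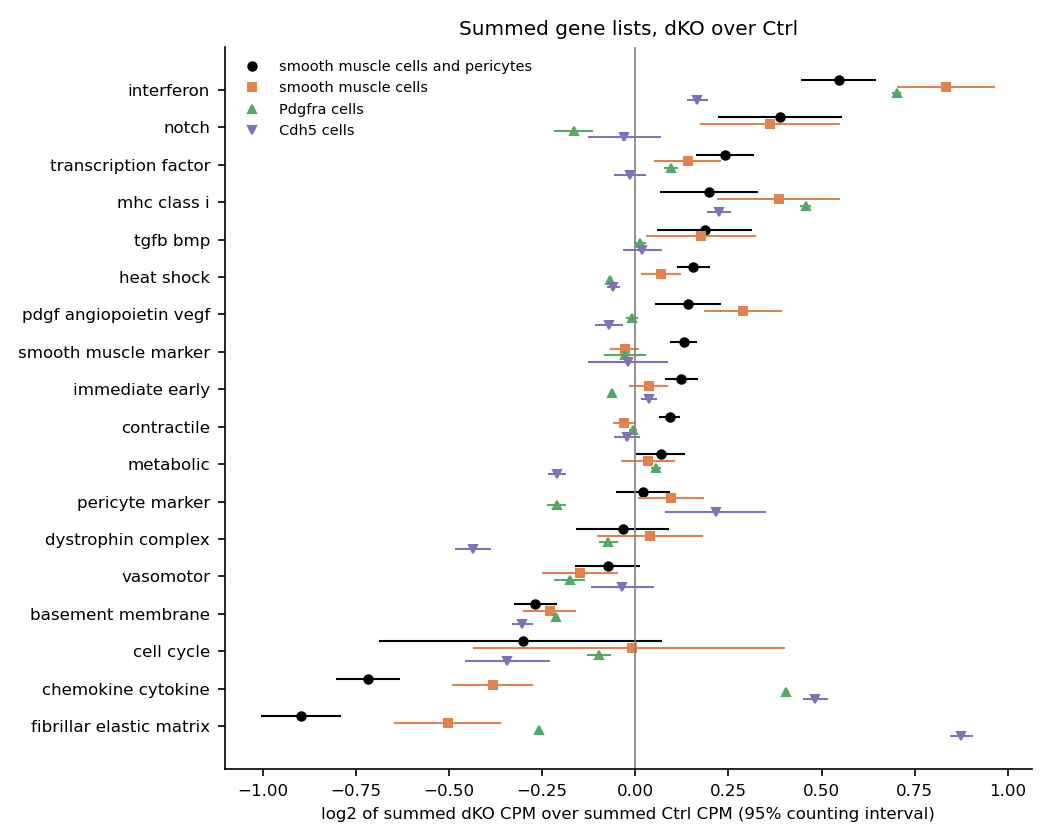
Log2 of summed dKO CPM over summed Ctrl CPM for each gene list, in smooth muscle cells and pericytes together (black), smooth muscle cells alone (orange), FAPs (Pdgfra gate, green) and endothelial cells (Cdh5 gate, purple), with 95% counting intervals as lines. The contractile list sits near 0, interferon genes are highest, and the matrix and chemokine lists are lowest in mural cells and closer to 0 in smooth muscle cells alone.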

How the data were processed

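Single-cell RNA-seq of 1 Ctrl and 1 dKO library was analysed. The authors deposited UMI counts per gene and barcode as sparse matrices. The matrix headers name Cell Ranger 3.0.2, whereas the submitters' processing notes name Cell Ranger 7.0.0, Seurat 4.3.0 and genome build mm10, and which version made the deposited counts is not given in the sources used here. The counts hold 0 mitochondrial genes, and 0 columns were left without a sample. Cells with fewer than 500 genes were left out. No doublet caller was run. Cells with a UMI of an exclusion gene were left out, which did not remove every cell with UMIs of genes that mark another class.

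UMIs were summed over the cells of a class in a library and divided by their total to give CPM. Ratios carry exact conditional 95% intervals and shares exact binomial ones (differences of shares, Newcombe ones), for counting error only. Genes needed at least 100 UMIs over both libraries, the 13 genes of the rule were left out of all counts of genes, and differences are described against a size of 2-fold. With 1 library per group no gene was tested. The 15 genes furthest in each direction were named, between genotypes without genes having over 25% of their UMIs in 1 cell, and between classes by the smaller ratio of the libraries. Of these, 2 genes are not reported here. The members, gene lists and rules were chosen with earlier results of these data known. A gate for cells with at least 10 UMIs of Dcn, Clu, Acta1 or Fabp4, the division by Rgs5 and the alternative that keeps cells with Cdh5 were chosen after seeing the data. Promoters are those of RefSeq for GRCm38.p6 and gene positions those of GENCODE M21. Alternatives covered the rule's thresholds, depth, scaling, single cells and the gene filter. The scripts used Python 3.11.15, numpy 2.4.6, scipy 1.17.1, pandas 2.3.3 and matplotlib 3.10.9 and were tested on simulated data.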

Additional observations from a re-analysis of the deposited data

Results flagged for a closer look

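For 7 gene lists the dKO over Ctrl log2 ratio of summed CPM had one sign in mural cells and the other in FAPs or endothelial cells, with every counting interval on its own side of 0. With 1 library per genotype these differences between cell types were not tested. The widest was that of the fibrillar and elastic matrix list, at -0.90 in mural cells and 0.88 in endothelial cells. The chemokine and cytokine list was at -0.72 in mural cells, 0.40 in FAPs and 0.48 in endothelial cells. The Notch list, which includes Notch3, a gene that chose the mural cells, was at 0.39 in mural cells and -0.17 in FAPs. The other 4 lists were nearer to 0. The PDGF, angiopoietin and VEGF list was at 0.14 in mural cells (-0.26 in pericytes alone) and -0.071 in endothelial cells, and the metabolic list at 0.069 and -0.21. The mural value of the metabolic list turned negative under 7 alternatives, among them -0.12 with Cdh5 cells kept and -0.10 as a mean over cells. The immediate early list was at 0.12 in mural cells and -0.062 in FAPs, and its mural value turned negative under 2 alternatives (-0.00301 and -0.040). The heat shock list was at 0.16 in mural cells, -0.069 in FAPs and -0.059 in endothelial cells.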

How the results depend on the processing

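Depth and cell number limit all values: 40 dKO members and 5 dKO pericytes, without a replicate library. No paired analysis was possible because the labels give each genotype only replicate 1 and the values come from no test. The contractile log2 ratio of dKO over Ctrl, 0.092 as reported, was 0.045 with at least 4 markers, 0.24 with at least 2, 0.27 without cells having Pecam1, Lyz2, Cd52, Clec3b or Myod1, 0.053 without members having 10 UMIs of Dcn, Clu, Acta1 or Fabp4, 0.28 with Cdh5 cells kept, 0.063 with median-ratio scaling, 0.31 in pericytes and 0.021 without the cell with most UMIs, and changed sign to -0.000443 as a mean over cells and -0.029 in smooth muscle cells. The interferon ratio, 0.55 as reported, was 0.20 without the Pecam1, Lyz2, Cd52, Clec3b or Myod1 cells, 0.30 without the Dcn, Clu, Acta1 or Fabp4 cells, 0.26 with Cdh5 cells kept and 0.84 in smooth muscle cells. The difference in the share of members, -1.20 points as reported, was -8.34 without cells having Pecam1, Lyz2, Cd52, Clec3b or Myod1 (which removes most other cells as well), -2.23 with Cdh5 cells kept and -2.16 among cells without Ptprc.

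The counts of genes 2-fold higher and lower, 14 and 33 of 1387 as reported, were 54 and 105 of 2025 with at least 2 markers, 29 and 102 of 2992 with Cdh5 cells kept, 3 and 6 of 40 in pericytes, 37 and 93 of 2709 with at least 50 UMIs per gene, 7 and 16 of 662 with at least 200 and 1309 and 941 of 9724 with at least 1 UMI in each library. The lower count was also 9 of 385 with cells thinned to 2000 UMIs and 16 of 958 in smooth muscle cells, and the higher count 5 without each gene's top cell. The genes tested differ in number between these settings. Of the 30 named genes, Il1r1 changed sign (0.064 with Cdh5 cells kept). In pericytes alone only 6 of the 30 had the 3 UMIs in each library needed for this comparison. On fewer UMIs, with intervals that included 0, Hes1 was at -0.26, Il6 at 3.03, Trip11 at 0.64 and Gpc6 and Pdcd10 at 0.44 there. The metabolic list was at -0.031 with at least 2 markers, -0.017 without the flagged cells and -0.12 with Cdh5 cells kept. It was at -0.10 as a mean over cells, -0.037 thinned, -0.59 in pericytes and -0.024 without its top cell. The smooth muscle marker list was at -0.0016 as a mean over cells and -0.029 in smooth muscle cells. MHC class I was at -0.12 and immediate early genes at -0.00301 without cells having Pecam1 and the other genes named. Immediate early genes were at -0.040 without the flagged cells, and TGF-beta and BMP genes at -0.041 with Cdh5 cells kept. PDGF, angiopoietin and VEGF genes were at -0.26 in pericytes. The cause of these changes was not tested.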
